A study of Mus musculus with 8 samples.

Results

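Serpins are a family of structurally related proteins, most of which inhibit proteases. The family was taken as every row of the liver gene count table whose Ensembl identifier maps to a protein-coding mouse symbol starting with Serpin. It holds 61 of the 45706 gene rows: 24 in clade A, 26 in clade B, 1 each in clades C, D, G and H, 3 in clade E, and 2 each in clades F and I, where the clade is the letter in the symbol. The table holds 7 more Serpin rows, which are annotated as pseudogenes and were not counted as members. Membership follows names only, but members and the gene lists used below were chosen with earlier results of these data known.

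The study sequenced liver mRNA from C57BL/6 mice, 4 with the genotype HuR WT and 4 with the genotype HuR KO, each mouse giving 1 library. HuR, encoded by Elavl1, is an RNA-binding protein that binds AU-rich stretches, mostly in 3′ untranslated regions (UTRs), and is known for regulating the stability and translation of its target mRNAs. The sources used here do not give the deleted exons, the promoter or cell type that drove any recombinase, or the age of the mice. The titles also carry animal numbers, and these form a low series, from 98 to 100, and a 4-digit series. KO replicates 3 and 4 and WT replicate 3 belong to the low series, and the other 5 libraries to the 4-digit series.

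An inhibitory serpin presents a reactive loop as bait. The target protease cleaves the loop, becomes covalently trapped, and the complex is cleared by receptors. Hepatocytes secrete the most abundant serpins of blood plasma, among them alpha-1-antitrypsin, antithrombin, heparin cofactor II, alpha-2-antiplasmin and C1 inhibitor, which restrain neutrophil elastase, clotting, fibrinolysis and complement. Clade B serpins mostly stay inside cells. Some members inhibit no protease: corticosteroid-binding globulin and thyroxine-binding globulin carry hormones, and the product of Serpinh1 is a collagen chaperone of the endoplasmic reticulum.

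Counts per library ranged from 18649618 to 31249286. Elavl1 stood at 32.7, 45.7, 42.9 and 46.6 CPM under the WT label and 49.4, 56.0, 49.1 and 45.6 CPM under the KO label, where CPM stands for TMM-scaled CPM, a gene's read count relative to the size of the library. Its log2 fold change was 0.25 with an SE of 0.11 (edgeR adjusted p = 0.258), so the count of the whole gene was not lower under the KO label and does not check the labels. Directions below are therefore those of libraries labelled KO against libraries labelled WT. The hepatocyte marker Alb was between 86970.0 and 111992 CPM in all 8 libraries, as fits the labelled tissue. WT replicate 3 stood apart from its group: its mean distance to the other WT libraries on a log2 scale was 0.597, and its mean distance to the KO libraries was 0.586.

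The alpha-1-antitrypsin genes carry most of the clade A signal together with Serpina3k, and near-identical copies make them hard to count. Mice have several Serpina1 copies in a row on chromosome 12. The stretches below lie before the annotated RefSeq start sites (GRCm38.p6, minus strand, 5′ to 3′) and are shown because they let the similarity of the copies be seen. Capitals mark 12 letters that all of them hold.
Serpina1a: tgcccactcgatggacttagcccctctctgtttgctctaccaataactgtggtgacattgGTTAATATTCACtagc
Serpina1b: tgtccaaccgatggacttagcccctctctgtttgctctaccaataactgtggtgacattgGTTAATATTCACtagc
Serpina1c: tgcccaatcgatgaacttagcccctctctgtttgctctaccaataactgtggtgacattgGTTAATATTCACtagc
Serpina1d: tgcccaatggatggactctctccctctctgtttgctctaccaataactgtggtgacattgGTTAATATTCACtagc
Serpina1e: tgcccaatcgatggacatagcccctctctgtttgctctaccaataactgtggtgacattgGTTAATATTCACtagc
These windows are chr12:103863625-103863700 for Serpina1a, chr12:103738200-103738275 for Serpina1b, chr12:103904962-103905037 for Serpina1c, chr12:103773634-103773709 for Serpina1d and chr12:103956960-103957035 for Serpina1e. Counted from 1 at the 5′ end and read as the Serpina1b base, the position and the base of the other copy, Serpina1a differs by T3C, A7C and C8T, Serpina1c by T3C, C8T and G14A, and Serpina1e by T3C, C8T and T17A. Serpina1d differs at 7 of the 76 positions, T3C, C8T, C9G, T18C, A19T, G20C and C21T. The 12 letters occurred, on either strand, in the 250 bases before the start of 5 of 27025 genes, which are these 5. The 27025 genes do not cover every chromosome.

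The likeness extends into the transcripts. Of the distinct 50-base stretches in annotated transcripts of Serpina1c, 74.2% also occur in another gene, against 57.6% for Serpina1a, 50.9% for Serpina1d, 34.6% for Serpina1e and 29.5% for Serpina1b. Most of the stretches shared by Serpina1c, 69.4% of its total, lie in Serpina1a. In the Serpina3 copies the shares were lower, at 19.1% for Serpina3m, 14% for Serpina3k and 6.90% for Serpina3n. Transcripts of the members annotated as retained introns were left out of this search. In the transcripts searched, Serpine2, Serpinf2 and Serpinh1 shared no such stretch with any gene. For Serpine2 these held 2274 distinct stretches, while its counted row holds 8287 exon bases, so part of that row was not searched. The authors' counting left out reads that fit several places, so the levels of the Serpina1 copies are uncertain and hold mainly the reads that tell the copies apart.

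Of the 61 members, 29 passed the filter on low counts and were tested, and 32 did not. Among the untested were 21 of the 26 clade B genes, many of which are duplicates particular to mice, and 8 of clade A, 1 of clade E and both of clade I. In 16 of the untested members no read was counted in any library. The highest count of an untested member in a library was 19, for Serpini1, which encodes the nerve cell inhibitor neuroserpin.

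The family took 1.98% to 2.40% of all gene counts in a library. Its summed level was 22238 ± 1993 CPM (SD, n = 4) under the WT label and 21518 ± 2010 under the KO label. Clade A made up 78.2% of that sum under the WT label and 76.7% under the KO label. Clade C, which is antithrombin alone, came next at 2223 ± 82.7 against 2187 ± 77.1 CPM. Clade B, with 5 tested members, summed to only 37.7 ± 0.986 against 43.1 ± 2.32 CPM. A sum over members has no test here.

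**Figure D1:**
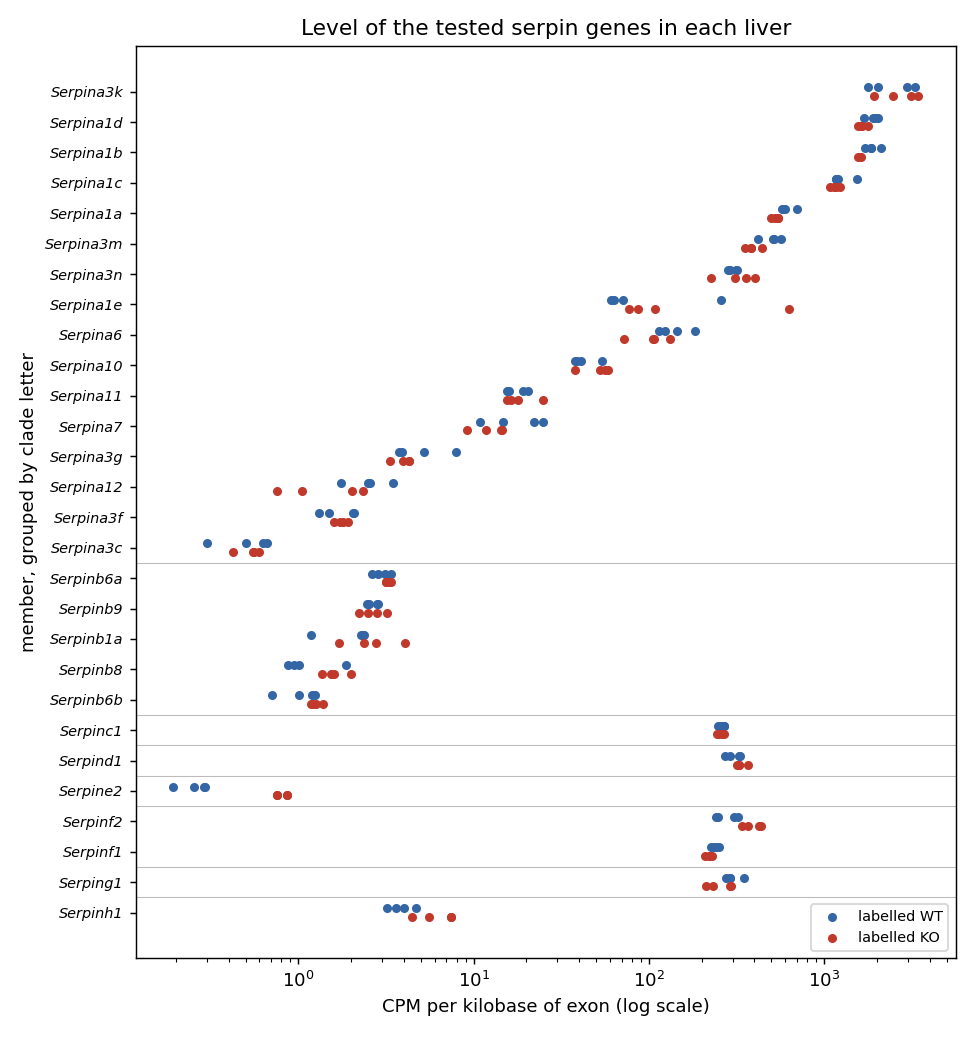
CPM per kilobase of exon (log scale) of the tested Serpin genes, all but 1 of them shown, grouped by clade, with 1 point per library, WT and KO labels in separate colours. The tested Serpina1 copies, Serpina3k, Serpina3m, Serpina3n and the plasma serpins lie to the right, up to a mean of 2628 for Serpina3k. Serpina3c, with a mean of 0.527, and Serpine2, with a mean of 0.534, lie to the left.

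Per kilobase of exon, a scale that takes gene length into account, the highest mean level over all 8 libraries was that of Serpina3k at 2628 CPM per kilobase. Serpina1d at 1772 and Serpina1b at 1742 followed, then Serpina1c at 1213, Serpina1a at 570.5 and Serpina3m at 448. Serpina1d and Serpina1b did not differ in this order beyond their spread over libraries. Below them came a group of secreted serpins: Serpinf2 at 336, Serpind1 at 320.0, Serpina3n at 313, Serping1 at 279, Serpinc1 at 258 and Serpinf1 at 229. The highest clade B gene, Serpinb6a, stood at 3.13, and Serpine2 at 0.534. Exon lengths are sums over all annotated transcripts, 8546 bases for Serpinc1 and 8287 for Serpine2, which lowers the level per kilobase of these long genes. They also include stretches shared between copies, whose reads were left out. These shares are unequal, 74.2% for Serpina1c, 29.5% for Serpina1b and 14% for Serpina3k. The order of the Serpina1 copies and their place below Serpina3k are therefore uncertain.

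In the libraries labelled KO, 3 of the 29 tested members rose and none fell by edgeR's quasi-likelihood test, with p adjusted by Benjamini-Hochberg over all 14645 tested genes. They are Serpine2, Serpinf2 and Serpinh1. Of all genes tested 2.32% were called higher, 1.37% lower and 3.69% in either direction. At an unadjusted p under 0.05 there were 3 members higher and 3 lower, against 18% of all genes in either direction. DESeq2 called 3 members higher and 1 lower, and limma-voom 1 higher and none lower. The median log2 fold change of the 29 was 0.0145, beside −0.00455 for all genes, with 17 members above 0 and 12 below. Levels that did not overlap between the groups were found for 2 members that were higher, against 6.19% of all genes, and 2 that were lower, against 5.01%. Liver tissue is a mixture of cells, so more or fewer cells of a type and more or less RNA per cell cannot be told apart in these values.

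**Figure D2:**
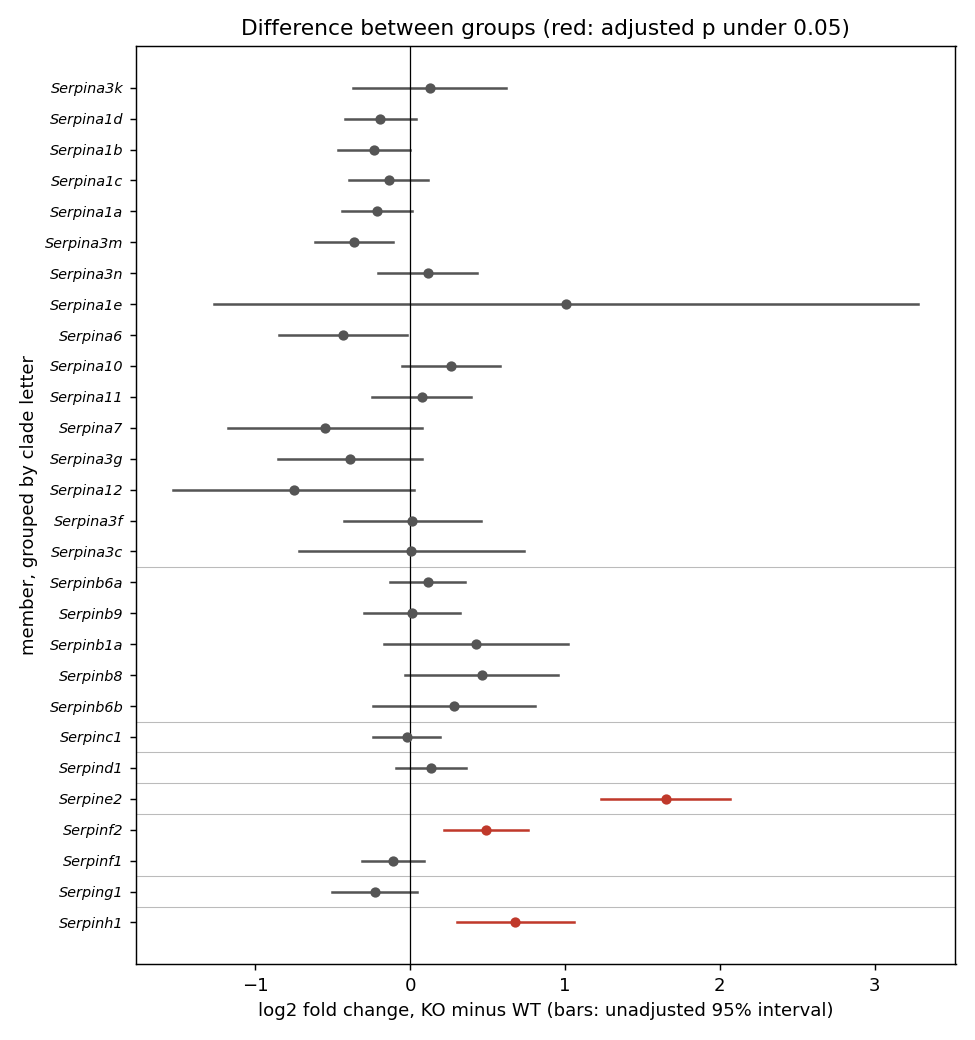
Log2 fold change, libraries labelled KO against WT, of the tested Serpin genes, all but 1 of them shown, grouped by clade, with 95% confidence intervals and the called genes marked. Serpine2 at 1.65, Serpinh1 at 0.68 and Serpinf2 at 0.49 are called, and the wide interval of Serpina1e runs from −1.27 to 3.28.

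Serpine2 encodes protease nexin-1, a cell-surface inhibitor of thrombin, urokinase and plasmin. It lies on chromosome 1 (ENSMUSG00000026249, chr1:79794197-79861180 on mm10, minus strand). Its level in the libraries labelled WT was 2.44, 1.60, 2.11 and 2.38 CPM, and in those labelled KO 7.12, 6.28, 6.25 and 7.18 CPM. All 4 KO libraries were above all 4 WT libraries. The mean was 2.14 ± 0.383 (SD, n = 4) against 6.71 ± 0.513 CPM, a 3.14-fold rise with a log2 fold change of 1.65, an SE of 0.20 and a 95% confidence interval of 1.23 to 2.07 (edgeR adjusted p = 0.000543). The exact two-sided permutation test gave p = 0.0286, the smallest that 4 against 4 libraries allow. The difference in log2 CPM was 1.63 in the 4-digit series and 1.63 in the low series.

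Serpinf2 encodes alpha-2-antiplasmin, the main plasma inhibitor of plasmin, and is made by hepatocytes. It lies on chromosome 11 (ENSMUSG00000038224, chr11:75431732-75439591 on mm10, minus strand). Its level was 562, 579, 709 and 752 CPM under the WT label and 1016, 790.1, 986 and 857 CPM under the KO label. Every KO library was above every WT library, and the closest pair was WT replicate 4 and KO replicate 2. The means were 650.4 ± 94.5 and 912 ± 107 CPM (SD, n = 4), a 1.4-fold rise with a log2 fold change of 0.49 and an SE of 0.13 (edgeR adjusted p = 0.0482, close to the threshold of 0.05). Leaving out WT replicate 1 or 2, or KO replicate 1, 3 or 4, ended the call, with adjusted p over the left-out libraries from 0.0216 to 0.165. The difference in log2 CPM was 0.52 in the 4-digit series and 0.38 in the low series, and the call was lost in each (edgeR adjusted p = 0.103 and 0.0828). It was also lost with DESeq2's size factors in edgeR (adjusted p = 0.0509), without robust estimation (0.0585), with the replicate block (0.0567) and with limma-voom (0.0524).

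Serpinf1, which encodes pigment epithelium-derived factor, a secreted serpin that inhibits no protease, lies beside Serpinf2 on the same strand (chr11:75409769-75422701). Its level was 535, 589, 550.2 and 572 CPM under the WT label and 492, 527, 537 and 522 CPM under the KO label, with overlap between the groups. The log2 fold change was −0.11 with an SE of 0.094 (edgeR adjusted p = 0.586). The difference between these neighbours was not tested.

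Serpinh1 encodes the chaperone that binds folded procollagen and is the only clade H gene. It lies on chromosome 7 (ENSMUSG00000070436, chr7:99345375-99353230 on mm10, minus strand). Its level was 9.70, 7.81, 11.4 and 8.82 CPM under the WT label and 10.8, 13.6, 18.2 and 18.1 CPM under the KO label. The groups overlapped, since KO replicate 1 was below WT replicate 3. The means were 9.44 ± 1.54 and 15.2 ± 3.61 CPM (SD, n = 4), a 1.60-fold rise with a log2 fold change of 0.68 and an SE of 0.18 (edgeR adjusted p = 0.0480), and the exact permutation p was 0.0571. The highest library of each group belonged to the low series. The difference in log2 CPM was 0.66 in that series and 0.47 in the 4-digit series, where the call was lost (edgeR adjusted p = 0.229). The call was also lost with the stricter filter (adjusted p = 0.0509), without robust estimation (0.0602), with limma-voom (0.0900), and when WT replicate 1, 2 or 4, or KO replicate 2, 3 or 4, was left out, with adjusted p over the left-out libraries from 0.0170 to 0.157.

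**Figure D3:**
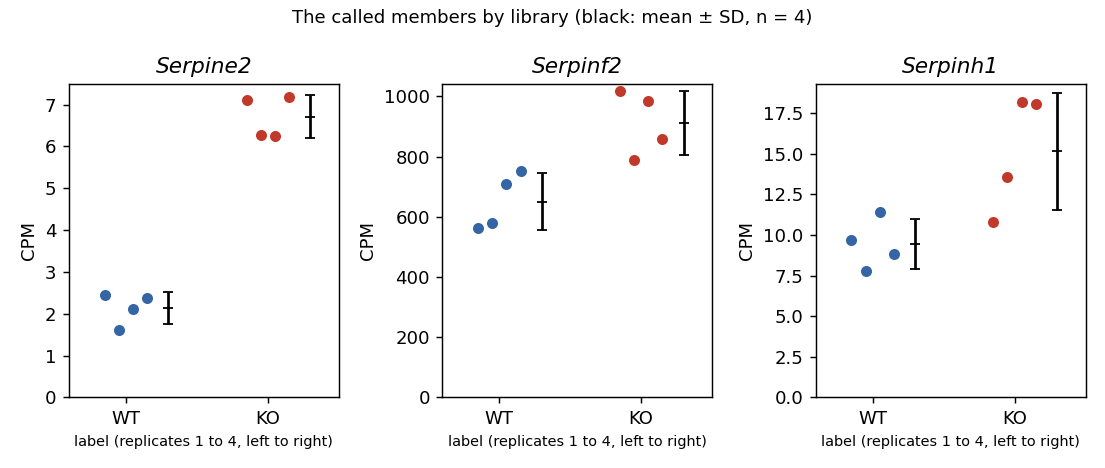
CPM of Serpine2, Serpinf2 and Serpinh1 in each library (points), with the mean ± SD of each group (bars). For Serpine2 the KO libraries lie from 6.25 to 7.18 and the WT libraries from 1.60 to 2.44, while for Serpinh1 KO replicate 1 at 10.8 lies inside the WT range.

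Markers of other liver cells, in lists chosen with earlier results of these data known, moved in the same libraries. Of 12 tested bile duct markers 9 were called higher, with a summed level of 233 to 312 CPM under the WT label and 447 to 526 under the KO label, and no member of that list was at 0. Epcam, a surface protein of bile duct cells, rose 4.12-fold (edgeR adjusted p = 0.000902). With WT replicate 1, WT replicate 2 or KO replicate 4 left out, 5 were called. Of 12 stellate cell and fibroblast markers 5 were called higher, with sums of 413 to 461 and 512 to 604 CPM. With WT replicate 2 or KO replicate 1, 3 or 4 left out 3 were called, and in the 4-digit series 2. None of 10 hepatocyte markers was called, 2 being under an unadjusted p of 0.05 and 1 being called lower by DESeq2. By edgeR 1 was called lower with no filter on low counts, with the number series as a covariate and without WT replicate 3. The sums of the hepatocyte markers were 140354 to 156629 and 124639 to 149284 CPM. Of 9 endothelial, 8 macrophage, 5 neutrophil and 7 lymphocyte markers tested none was called by edgeR, DESeq2 or limma-voom, with 3, 2, 1 and 0 at an unadjusted p under 0.05, and of 5 mesothelial markers 1 was called higher, Krt19, which is also a bile duct marker. The part of bile duct and stellate cells in the rise of Serpine2, Serpinh1 and Serpinf2 was not tested.

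The regions before the start sites of the 3 called genes are shown because they differ in base composition and in GC boxes (GGGCGG on either strand, in capitals). They come from RefSeq on GRCm38.p6, minus strand, and hold no annotated exon of these genes. Their distances from the RefSeq start differ, so they are not like regions. The window runs from −151 to −32 for Serpine2, from −210 to −91 for Serpinf2 and from −120 to −1 for Serpinh1. The Serpine2 window lies before the RefSeq start but inside the counted row, which reaches further through an upstream exon of another transcript.
Serpine2: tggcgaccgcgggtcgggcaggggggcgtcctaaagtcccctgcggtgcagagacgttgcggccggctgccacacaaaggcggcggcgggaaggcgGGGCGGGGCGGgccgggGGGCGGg
Serpinf2: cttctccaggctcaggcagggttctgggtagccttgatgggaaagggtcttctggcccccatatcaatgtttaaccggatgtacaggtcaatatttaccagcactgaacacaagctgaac
Serpinh1: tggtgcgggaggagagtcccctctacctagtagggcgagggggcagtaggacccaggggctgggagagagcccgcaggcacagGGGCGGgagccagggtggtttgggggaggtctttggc
These are chr1:79858697-79858816 for Serpine2, with 3 matches and 79.2% G or C, chr11:75439592-75439711 for Serpinf2, with 0 matches and 50%, and chr7:99353240-99353359 for Serpinh1, with 1 match and 69.2%. In the 250 bases before the start, 35.4% of 27025 genes hold the GC box letters, and 5 of the 22 tested members with a promoter entry do. GTTAAT, the half-site of the liver factors HNF1, which is also the start of the 12 letters shared by the Serpina1 copies, was present in 8 of these 22 members and 7 of the 12 in clade A, against 7.49% of genes. TGTTTNC, the letters of the forkhead factors FOXA, was present in 9 of 22, against 19.9%. The 5 tested Serpina1 copies, whose windows are near-identical, all hold both GTTAAT and TGTTTNC. They make up most of the 8 members with GTTAAT and most of the 9 with TGTTTNC, so these shares count nearly the same sequence several times. GAANNTTC, part of the heat shock element, was found in 1, Serpina3c, against 7.73%, and not in this window of Serpinh1. A match is a description of letters, not of binding.

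HuR is known to bind AU-rich letters, so the core pentamer ATTTA was counted in annotated 3′ UTRs. It occurred in 11 of the 29 tested members (37.9%), against 69.8% of 12741 tested genes with a 3′ UTR. Members' 3′ UTRs were also shorter, with a median of 671 bases against 1165. Serpine2, with a 3′ UTR of 808 bases, and Serpinf2, with 671, held none. Serpinh1, with 744, held 1, at chr7:99345810-99345838 on the minus strand (GRCm38), shown with the pentamer in capitals.
Serpinh1: atcagtgttcatATTTAtggccaggcatt
The Serpina1 copies, with 3′ UTRs of 86 or 87 bases, held none. Serpinb8 and Serpinb9, with 5 each, held the most among the tested members, Serpinb6b held 4, and none of these genes was called. These members were chosen for naming after their counts were seen.

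Alpha-1-antitrypsin, the product of the Serpina1 genes, is the main plasma inhibitor of neutrophil elastase. None of the 5 tested copies was called, and 4 had lower means under the KO label, of which Serpina1d turned to a log2 fold change of 0.012 in the low series. Serpina1b (chr12:103728156-103830373, a row that spans Serpina1d) was at 4475, 4474, 4148 and 5110.4 CPM under the WT label and at 3851, 3885, 3789.9 and 3931 CPM under the KO label, without overlap. Its log2 fold change was −0.24 with an SE of 0.11 (edgeR adjusted p = 0.267). Serpina1a was at 1093, 1070.1, 1046 and 1280.2 CPM under the WT label and at 993, 1005, 965 and 908 CPM under the KO label, also without overlap. Its log2 fold change was −0.21 with an SE of 0.11 (edgeR adjusted p = 0.304). These are the 2 members that were lower without overlap, and neither passed the test over all genes.

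The other Serpina1 copies overlapped between the groups. Serpina1d was at 2638 ± 201 and 2304 ± 121 CPM (SD, n = 4; log2 fold change −0.20, edgeR adjusted p = 0.363). Serpina1c was at 1731 ± 251 and 1572 ± 86.6 CPM (log2 fold change −0.14, edgeR adjusted p = 0.595). The sum of the A1 group was 10225 ± 1068 against 9073 ± 455 CPM. Serpina1f, annotated with this group, had 1 count in all libraries together.

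Serpina1e stood apart from its copies. Its level was 102, 115, 98.3 and 414 CPM under the WT label and 1024, 176, 139 and 124 CPM under the KO label. WT replicate 4 and KO replicate 1 were each far above the rest of their group, and the other 6 libraries lay between 98.3 and 176 CPM. The log2 fold change was 1.01 with an SE of 0.94 (edgeR adjusted p = 0.651), and it turned to −0.32 without KO replicate 1. The difference in log2 CPM was 1.32 in the 4-digit series, which holds both high libraries. It was 0.42 in the low series, where edgeR called the gene higher with a single WT library, assumed to vary like the others. In WT replicate 4 the other copies were also at the top of their group, while in KO replicate 1 this held only for Serpina1c.

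**Figure D4:**
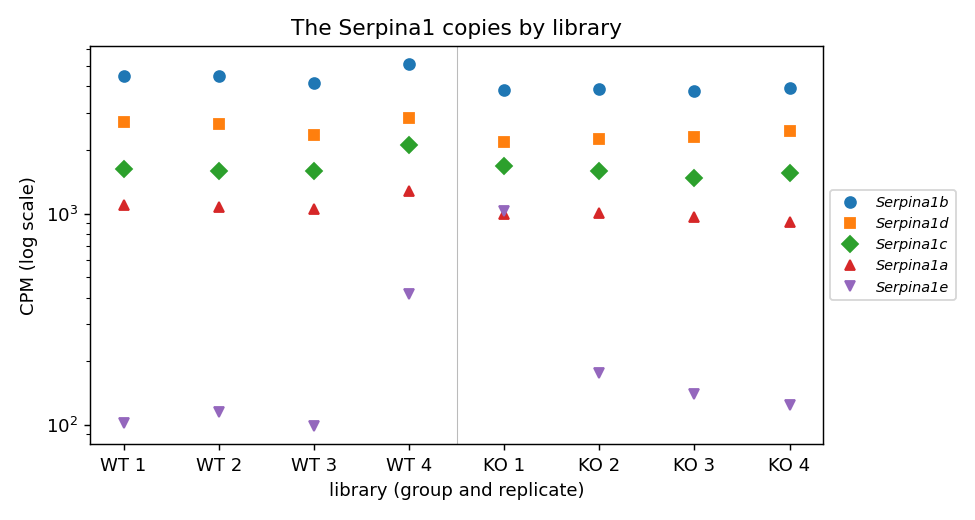
CPM (log scale) of the 5 tested Serpina1 copies in each library. Serpina1b, Serpina1d, Serpina1c and Serpina1a keep their order in all 8 libraries, while Serpina1e is at 414 in WT replicate 4 and 1024 in KO replicate 1, where it passes Serpina1a.

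The Serpina3 genes are the mouse relatives of alpha-1-antichymotrypsin, an acute phase inhibitor of chymotrypsin-like proteases. Serpina3k, the highest member per kilobase, was at 4178, 3671, 6763 and 6076 CPM under the WT label and at 7078, 3946, 5083 and 6446 CPM under the KO label. The 8 libraries together ranged over 1.93-fold, and the groups overlapped widely. The log2 fold change was 0.12 with an SE of 0.22 and a 95% confidence interval of −0.37 to 0.62 (edgeR adjusted p = 0.832).

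Serpina3m was at 976, 878, 719 and 895 CPM under the WT label and at 759.8, 661, 661 and 609.7 CPM under the KO label. Only WT replicate 3 lay below a KO library. Its log2 fold change was −0.37 with an SE of 0.12 and a 95% confidence interval of −0.62 to −0.11, and it did not pass over all genes (edgeR adjusted p = 0.105). It was called lower by DESeq2 (adjusted p = 0.0282) and, with edgeR, without WT replicate 3 (adjusted p = 0.0199). The row of Serpina3m (chr12:104338486-104394257) overlaps all of Serpina3k (chr12:104338486-104346144) on the same strand, and reads in exons annotated to both were left out by the authors' counting.

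Serpina3n, an acute phase gene that inhibits leukocyte proteases, was at 621 ± 34.5 and 671 ± 159 CPM (SD, n = 4; log2 fold change 0.11, edgeR adjusted p = 0.752). The spread was wider under the KO label, from 467 to 837 CPM, than under the WT label, from 587 to 655 CPM; that difference in spread was not tested. Serpina3g, an inhibitor of lysosomal cathepsins, was at 10.9 ± 4.09 and 8.35 ± 0.958 CPM (edgeR adjusted p = 0.370). The summed A3 group was at 6677 ± 1412 and 6997 ± 1557 CPM.

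The other clade A members include the hormone carriers, and none was called. Serpina6, corticosteroid-binding globulin, was at 253, 322, 217 and 201 CPM under the WT label and at 128, 185, 233 and 189 CPM under the KO label, with overlap. Its log2 fold change was −0.44 with an SE of 0.19 (edgeR adjusted p = 0.247), and the difference in log2 CPM was −0.73 in the 4-digit series and −0.051 in the low series. Serpina7, thyroxine-binding globulin, on chromosome X, was at 44.5 ± 15.8 and 30.5 ± 6.18 CPM (SD, n = 4; log2 fold change −0.55, edgeR adjusted p = 0.338). The difference in log2 CPM was −0.40 in the 4-digit series and −0.94 in the low series, where it was called lower with a single WT library, assumed to vary like the others (edgeR adjusted p = 4.6e-10). These and the genes of the next paragraph were chosen for their known roles after their values were seen.

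Serpina12 encodes vaspin, a serpin described as an adipokine. Its level was 9.40, 9.25, 12.8 and 6.43 CPM under the WT label and 3.87, 2.77, 7.42 and 8.57 CPM under the KO label. The groups overlapped, but not within a number series: within the 4-digit series the KO libraries were below all WT libraries, and so were KO replicates 3 and 4 below WT replicate 3. With all libraries and no term for the series, the log2 fold change was −0.75 with an SE of 0.35 (edgeR adjusted p = 0.294). With the number series as a covariate it was −1.08 (edgeR adjusted p = 0.00449), and within the 4-digit series −1.34 (edgeR adjusted p = 0.0135). Serpina10, the protein Z-dependent inhibitor of factor Xa, was at 150.0 ± 26.4 and 179.9 ± 32.4 CPM (SD, n = 4; edgeR adjusted p = 0.374).

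The clotting and complement inhibitors of plasma did not pass the test. Serpinc1, antithrombin, the main inhibitor of thrombin and factor Xa, was at 2119.8, 2278, 2195 and 2301 CPM under the WT label and at 2151, 2101, 2277 and 2219.6 CPM under the KO label. It was the steadiest of the abundant members, with a log2 fold change of −0.023 and a 95% confidence interval of −0.24 to 0.19 (edgeR adjusted p = 0.937). Serpind1, heparin cofactor II, was at 668 ± 62.8 and 734 ± 49.6 CPM (SD, n = 4; log2 fold change 0.13, edgeR adjusted p = 0.557). Serping1, the C1 inhibitor, which restrains the first complement proteases and plasma kallikrein, was at 699 ± 77.6 and 597 ± 95.8 CPM (log2 fold change −0.23, edgeR adjusted p = 0.375). Agt, angiotensinogen, is a serpin by structure under another symbol and not a member by name; its log2 fold change was 0.058 (edgeR adjusted p = 0.841).

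Of the clade B genes, which guard cells against their own proteases, the 5 tested all had log2 fold changes above 0, with a median of 0.28, and none was called or had an unadjusted p under 0.05. Serpinb6a, an intracellular inhibitor and the highest of them, was at 16.2 ± 1.81 and 17.6 ± 0.618 CPM (SD, n = 4; edgeR adjusted p = 0.659). Serpinb9, the inhibitor of granzyme B, had a log2 fold change of 0.014 (edgeR adjusted p = 0.975), which turned to −0.050 in the 4-digit series, and that of Serpinb8 turned to −0.25 in the low series. Serpinb8, an inhibitor of furin, was at 4.81, 4.19, 8.92 and 4.55 CPM under the WT label and at 6.54, 9.53, 7.34 and 7.71 CPM under the KO label. WT replicate 3 was the only WT library inside the KO range, and without it the gene was called higher (log2 fold change 0.79, edgeR adjusted p = 0.0178).

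Genes that work with serpins were counted from lists, which were chosen with earlier results of these data known. Of 12 tested proteases of clotting and fibrinolysis none was called (2 at an unadjusted p under 0.05, none by DESeq2 or limma-voom), and the median log2 fold change was −0.037. Plat, the tissue plasminogen activator, had the smallest p, at 0.505 ± 0.146 and 1.16 ± 0.514 CPM (SD, n = 4; edgeR adjusted p = 0.151). Of 7 complement proteases none was called (4 at an unadjusted p under 0.05, 1 lower by DESeq2), with a median of −0.25. By edgeR 1 of them was called lower with the number series as a covariate, and 1 higher without WT replicate 3. Masp2, a protease of the lectin pathway that C1 inhibitor restrains, was at 270.0 ± 14.5 and 214 ± 11.4 CPM (edgeR adjusted p = 0.0561). Of 10 lysosomal cathepsins none was called (1 at an unadjusted p under 0.05, 1 lower by DESeq2), though 1 was lower without WT replicate 3. Of 10 clearance receptors and cofactors none was called (1 at an unadjusted p under 0.05, 1 lower by DESeq2). In that list 1 gene was also called lower with no filter on low counts, with the replicate block, with the number series as a covariate and without WT replicate 1.

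Among 6 tested leukocyte and epithelial proteases 1 rose, and 2 did by DESeq2. By edgeR it was St14, the epithelial membrane protease matriptase, from 1.18 ± 0.482 to 4.78 ± 1.14 CPM (SD, n = 4; 4.02-fold, edgeR adjusted p = 0.00276). Among 14 tested protease inhibitors of other families 2 rose and none fell by edgeR (6 at an unadjusted p under 0.05, 2 higher and 2 lower by DESeq2, 2 higher by limma-voom). In the low series, and with no filter on low counts, 1 was also called lower. Spint1, an epithelial inhibitor of matriptase, rose from 0.684 ± 0.350 to 4.02 ± 0.742 CPM (6.00-fold, edgeR adjusted p = 0.000902). Timp2, an inhibitor of matrix metalloproteases, rose from 20.4 ± 1.25 to 32.6 ± 2.36 CPM (1.60-fold, edgeR adjusted p = 0.00194). The bile duct marker sums given above moved with St14 and Spint1, and their part in these values was not tested.

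Of 18 collagen genes and collagen folding partners of Serpinh1, 6 rose and none fell by edgeR (11 at an unadjusted p under 0.05, 8 higher and 1 lower by DESeq2, 6 higher by limma-voom), with a median log2 fold change of 0.49. The summed level of the list did not rise, at 1806 to 1930 CPM under the WT label and 1585 to 1883 under the KO label. Col1a1, a chain of fibrillar collagen, rose 2.0-fold (edgeR adjusted p = 0.0103) and Col1a2, its partner chain, 1.59-fold (edgeR adjusted p = 0.00770). Col4a1 and Col4a2, the chains of basement membrane collagen, rose 1.53-fold (edgeR adjusted p = 0.00222) and 1.4-fold (edgeR adjusted p = 0.0178). Only 3 of the list were called without WT replicate 2 or KO replicate 4, and 3 in the 4-digit series. Col1a1 and Col1a2 also stand on the stellate cell list, whose sums moved with them, and the part of those cells was not tested. Of 13 heat shock genes, a group to which Serpinh1 is often counted, none was called (1 at an unadjusted p under 0.05, none by DESeq2 or limma-voom), with a median of 0.29.

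Of 24 acute phase genes, which respond to inflammation as Serpina3n does, 1 rose and none fell by edgeR (5 at an unadjusted p under 0.05, 2 higher and 2 lower by DESeq2, none by limma-voom), with a median of 0.034. It was Itih3, a hyaluronan-binding plasma protein (1.48-fold, edgeR adjusted p = 0.0412), and none was called higher when WT replicate 1, 2 or 4, or KO replicate 1, 3 or 4, was left out. In the low series 8 of the list were higher and 1 lower, in the 4-digit series none was higher and 1 lower, 1 was lower without WT replicate 2 and 2 without WT replicate 3. Of 9 hormone carriers and partners none was called (3 at an unadjusted p under 0.05, 2 lower by DESeq2), with a median of −0.13. Of 14 liver transcription factors 1 rose, Foxa3, a forkhead factor of hepatocytes (1.5-fold, edgeR adjusted p = 0.0480), and leaving out any library other than WT replicate 3 ended that call, as did the stricter filter, the fit without robust estimation and limma-voom. In the low series 4 of the list were called lower and none higher.

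**Figure D5:**
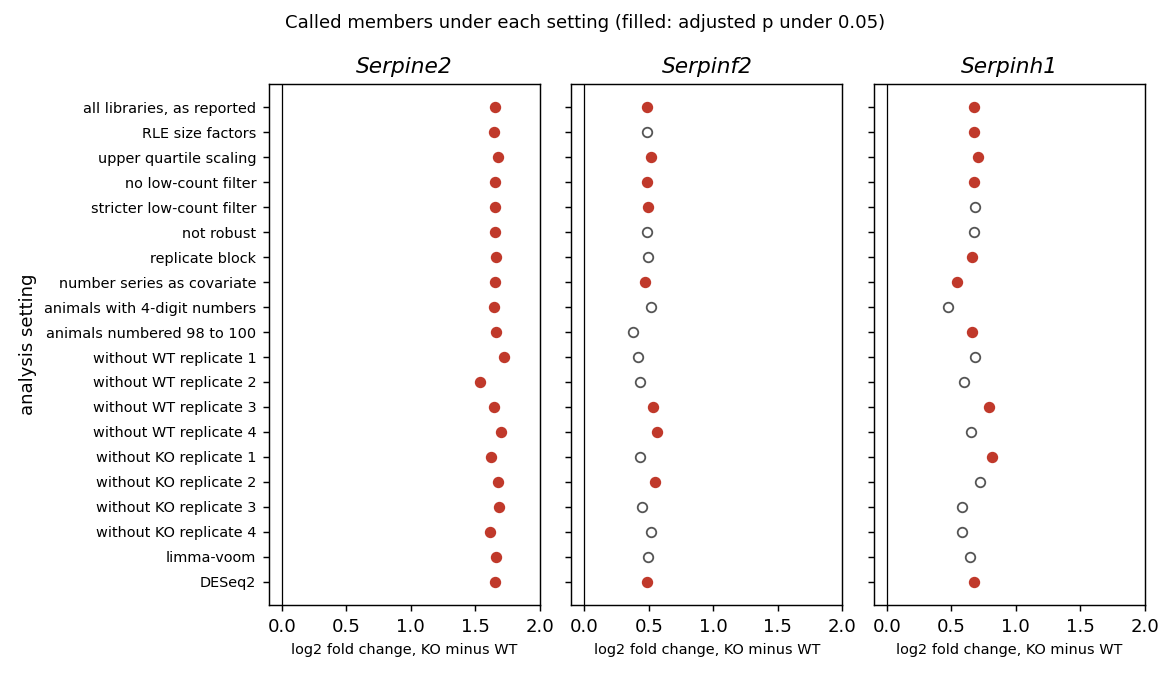
Log2 fold change, KO minus WT label, of Serpine2, Serpinf2 and Serpinh1 as reported and under each of 19 alternative analyses, with filled points where the adjusted p was under 0.05. Serpine2 is filled throughout, while Serpinf2 and Serpinh1 stay above 0 but have open points in 11 and 10 of the alternatives.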

How the data were processed

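Per the labels' protocols, RNA from frozen liver was enriched for mRNA and made into strand-specific libraries. Per the submitters' processing notes, bcl2fastq 2.19.1, GSNAP and featureCounts 1.5.1 were used on mm10 (GRCm38). The authors deposited raw read counts per gene; per the file headers these were counted against Ensembl 81 with strand setting 2 and a minimum mapping quality of 1, and the recorded command has no option for reads that fit several places or genes. The 92 spike-in rows held 0 counts and were left out. Symbols matched 45143 of the 45706 identifiers.

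The comparison used edgeR 4.0.16 in R 4.3.3: filterByExpr with a minimum count of 10, TMM scaling, and the robust quasi-likelihood test over all 14645 genes kept, with Benjamini-Hochberg adjustment. The threshold for a call was an adjusted p of 0.05. CPM are TMM-scaled. Single values were compared with exact two-sided permutation tests. Every pair of libraries differed by more than sampling noise (smallest chi-square per degree of freedom 16.7). The fit was tested on simulated counts. The alternatives were other scalings and filters, DESeq2 1.42.0, limma 3.58.1 (voom), the replicate number as a block, the number series, and leaving out each library.

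Members and gene lists were chosen with earlier results of these data known. Named members are those called, those without overlap and the highest per kilobase of each clade. The 6 highest per kilobase, and the Serpina1 and Serpina3 copies with a mean of at least 10 CPM, are also named. From each list, the rule takes up to 4 called genes or the gene with the smallest p. For the cathepsins, clearance receptors, heat shock genes, hormone carriers and most cell type markers, the gene with the smallest p is not named. Other members named were chosen for their known roles after their values were seen. A tested member that the rule selects is counted but not reported here. Promoters are from RefSeq (GRCm38.p6), with entries for 52 of the 61 members, and the 27025 genes compared do not cover every chromosome. Transcripts are GENCODE M21.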

Additional observations from a re-analysis of the deposited data

Results flagged for a closer look

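In 58 groups of 4 libraries, each a tested member in 1 genotype, 5 held a library whose gap to the nearest of the others was a larger part of the group's range than Dixon's 95% critical value allows. About 1 in 20 groups passes by chance. Serpina1c was at 2107 CPM in WT replicate 4. Serpina1e was at 414 CPM in WT replicate 4 and at 1024 CPM in KO replicate 1. Serpinb8 was at 8.92 CPM in WT replicate 3, the library that also stood apart over all genes. Serpinb1a, an inhibitor of neutrophil proteases, was at 2.30 CPM in WT replicate 1, below the rest of its group.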

How the results depend on the processing

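Serpine2 was called in all 19 alternatives. The number of members called higher was 1 without robust estimation, 1 in the 4-digit animals and 1 with limma-voom, 2 with DESeq2's size factors in edgeR (Serpinf2 lost), 2 with the stricter filter (Serpinh1 lost), and 1 to 4 when a library was left out. The number called lower was 1 with the number series as a covariate, 1 in the 4-digit animals, 1 with DESeq2, 2 in the animals numbered 98 to 100 (Serpina7 and Serpina12, where 1 WT library is assumed to vary like the others) and 0 to 1 when a library was left out. Over all genes, 215 were higher in the 4-digit animals and 613 with DESeq2; 328 were lower with no filter, 308 with the covariate, 528 in the animals numbered 98 to 100 and 495 with DESeq2; leaving out a library gave 151 to 710 higher and 71 to 534 lower. The cause was not tested.

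Log2 fold changes turned sign for Serpinc1 (0.00139 with upper quartile scaling, 0.031 in the animals numbered 98 to 100), Serpinb9 (−0.024 with the covariate, −0.050 in the 4-digit animals), Serpina3f (−0.059 in the 4-digit animals) and Serpina3c (−0.000629 with DESeq2). In the animals numbered 98 to 100 they turned to 0.012 for Serpina1d, −0.26 for Serpina11, −0.35 for Serpina3c, 0.13 for Serpina3g, −0.23 for Serpina3k and −0.25 for Serpinb8. Leaving out a library gave −0.083 to 0.088 for Serpinb9, −0.011 to 0.12 for Agt, −0.17 to 0.13 for Serpina3c, −0.0095 to 0.28 for Serpina3k, −0.092 to 0.11 for Serpina3f, −0.32 to 1.80 for Serpina1e, −0.095 to 0.16 for Serpina11 and −0.012 to 0.25 for Serpina3n.

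Deviations of same-numbered libraries from their group means correlated weakly (0.025, 0.025, 0.12 and −0.15). Other pairs ranged from −0.20, for WT replicate 3 with KO replicate 2, to 0.22, for WT replicate 3 with KO replicate 4. The labels do not say whether the numbers pair the animals, and such correlations cannot decide it. With the replicate block 2 members were called higher, Serpine2 (1.66, adjusted p = 0.0012) and Serpinh1 (0.66, adjusted p = 0.0359), and Serpinf2 was at 0.49 (adjusted p = 0.0567).

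Genes with few reads, such as Serpine2 at a few CPM, carry more counting error than the plasma serpins.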
